A study of Mus musculus with 6 samples.

Results

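The genes described here build serine, one-carbon units and nucleotides. They are 36 of the 22672 genes listed for each library, chosen by name as enzymes of serine synthesis, the folate cycle, purine and pyrimidine synthesis, nucleotide salvage and deoxynucleotide (dNTP) supply. That choice was made with earlier results of these data known. Of the members, 34 were found by gene symbol, and Ctps and Hprt, which the files list as Ctps1 and Hprt1, by Ensembl gene ID. They fall into 4 branches: 9 genes of serine and folate metabolism, 11 of purine synthesis, 5 of pyrimidine synthesis and 11 of salvage and dNTP metabolism.

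The cells were BV2, an immortalized line of mouse microglia, the resident macrophages of the brain. The groups were 3 libraries labelled shNumb-ctr and 3 labelled shscr-ctr. By the usual reading of such names, the cells carried a short hairpin RNA against Numb or a scrambled hairpin. The labels name no further treatment, do not spell out ctr, and do not say whether the libraries of a group came from separate cultures, so the p-values measure only the spread between these libraries, which may be technical.

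Cells make serine from a glycolytic intermediate, and serine gives a carbon unit to folate in the cytosol or in mitochondria. Folate-bound carbon is built into the purine ring and into thymidylate. Purines and pyrimidines are then either made from small precursors or recovered from bases and nucleosides by salvage enzymes, and ribonucleotide reductase turns ribonucleotides into the dNTPs of DNA synthesis. Demand for these pathways is known to be high in dividing cells, and microglia in culture divide.

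The deposited values were read as FPKM, a count of fragments divided by transcript length and by library size. They summed to between 453082 and 455561 in the libraries labelled shNumb-ctr and between 451077 and 453631 in those labelled shscr-ctr, and the sequencing depth is unknown. All 16 microglial and macrophage markers reached 1 FPKM in at least 1 library, and their sum (FPKM) in the libraries labelled shNumb-ctr was 2276 to 2449, against 2191 to 2231 in those labelled shscr-ctr. Of the 15 markers tested, 7 were called higher and 2 lower. In shares, 46.7% were higher and 13.3% lower, against 8.11% and 10.7% of all tested genes. The part of these markers in the results below was not tested. Of these markers, Tmem119 did not exceed 2.02 FPKM and P2ry12 1.09 FPKM in any library. No marker of the 6 each for astrocytes, neurons, fibroblasts and lymphocytes reached 1 FPKM, and of 6 oligodendrocyte markers Mbp alone did, at up to 1.66 FPKM. Gfap, Aqp4, Rbfox3, Snap25, Mog, Col3a1, Dcn and Cd3g were listed at 0 in all 6 libraries. Numb itself was at 38.0, 37.2 and 40.0 FPKM in the libraries labelled shNumb-ctr, against 35.8, 36.7 and 36.1 FPKM in those labelled shscr-ctr (log2 fold change 0.08, limma adjusted p = 0.137). The targeted gene therefore goes against its label, and the directions below set libraries carrying the label shNumb-ctr against libraries with the label shscr-ctr.

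Most of these enzymes were slightly lower in the libraries labelled shNumb-ctr. All 36 passed the filter on low values (at least 1 FPKM in at least 3 libraries), 20 were called lower and 0 higher (limma adjusted p under 0.05, 3 against 3 libraries), which is 55.6% lower against 10.7% of the 10594 genes tested. With median-of-ratios scaling 19 members and 8.31% of all tested genes were called lower, and with quantile normalization 18 and 8.67%. Among the 8247 tested genes averaging 5 FPKM or more, a level that every member exceeded, 13.0% were called lower. Since the members were chosen with earlier results of these data known, these shares describe the list and do not test it. The median log2 fold change of the members was -0.15, against -0.02 over all tested genes, on the log2(FPKM + 1) scale. That scale understates the change of low genes, slightly at the levels of the members and strongly near 1 FPKM. The changes were small: the ratio of group means of the 20 called members lay between 0.813 and 0.917. In 24 members every library labelled shNumb-ctr lay below every library labelled shscr-ctr, and in 0 above, and no member with a higher level reached an unadjusted limma p under 0.05. Over all tested genes, 23.6% lay wholly below and 16.3% wholly above. In bulk RNA, fewer cells using a pathway and less RNA per cell cannot be told apart. Without shNumb-ctr replicate 1, or without shscr-ctr replicate 1, 13 members were called lower, beside 5.9% and 4.4% of all tested genes.

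**Figure D1:**
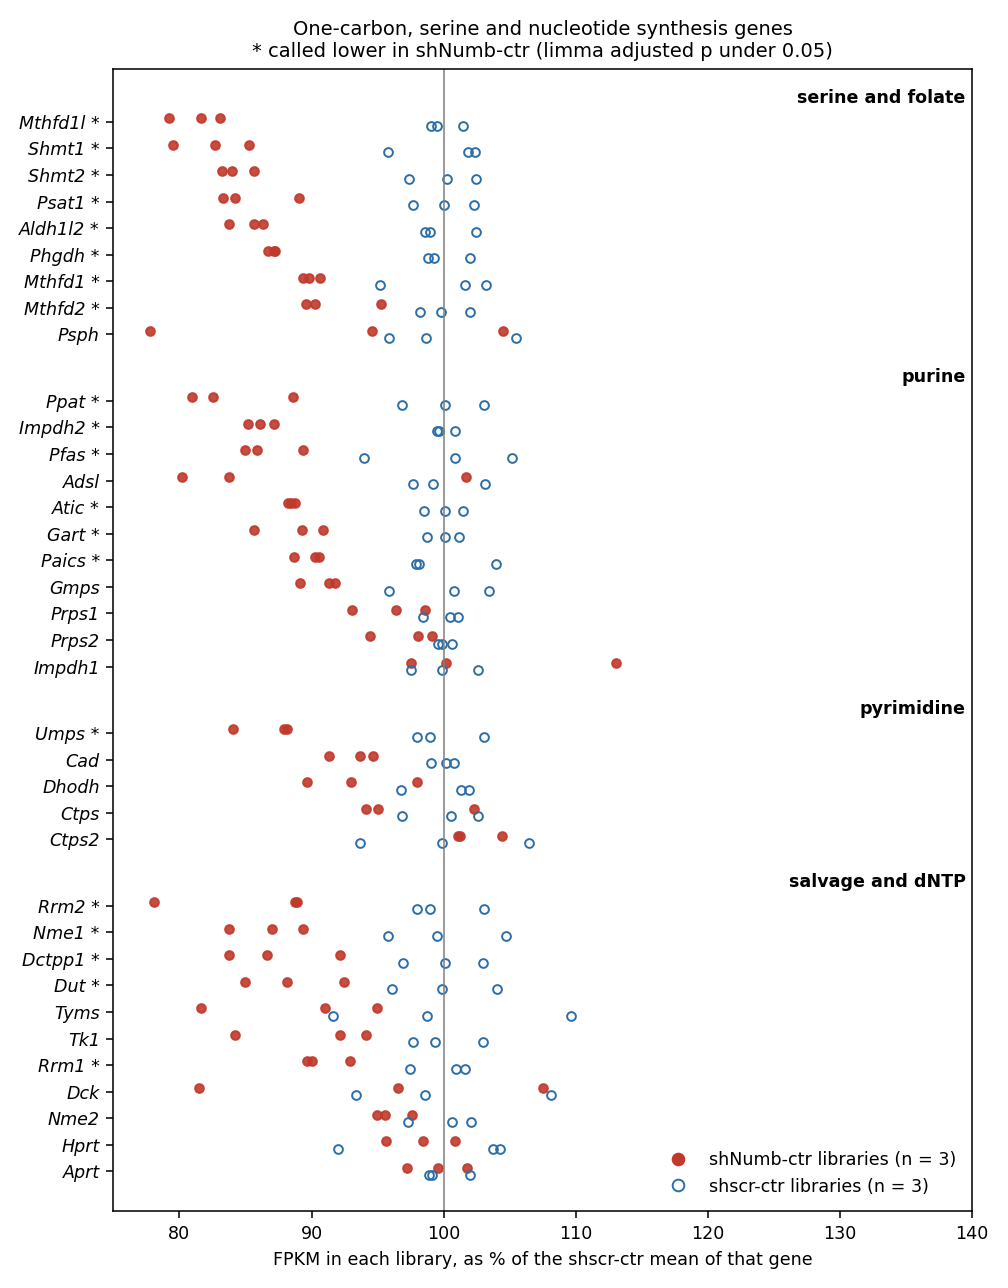
FPKM of each of the 36 members in each library, as a percentage of that gene's mean in the libraries labelled shscr-ctr, with genes ordered by fold change within each branch. Filled points are the 3 libraries labelled shNumb-ctr, open points the 3 labelled shscr-ctr, and an asterisk marks the 20 genes called lower.

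The serine and folate branch had 8 of 9 members called lower and 0 higher, with a median log2 fold change of -0.22. Of all tested genes 10.7% were called lower, against 88.9% of this branch. Its summed level was 1247 ± 17.8 FPKM in the libraries labelled shNumb-ctr and 1439 ± 22.4 FPKM in those labelled shscr-ctr (SD, n = 3 each).

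Phgdh, which opens the serine pathway by oxidizing 3-phosphoglycerate, had the highest level of all members. It was at 574, 571 and 574 FPKM in the libraries labelled shNumb-ctr, against 671, 650.1 and 653 FPKM in those labelled shscr-ctr. The groups did not overlap (log2 fold change -0.20, SE 0.024, limma adjusted p = 0.00208). Of the Phgdh transcript, 62.7% of 50-base windows also occur in other genes, chiefly the predicted genes Gm7901 and Gm9347, so its level is uncertain. Psat1, the aminotransferase of the next step, was at 218, 233 and 220.2 FPKM, against 268, 256 and 262 FPKM in the libraries labelled shscr-ctr (log2 -0.23, SE 0.033, limma adjusted p = 0.00479). Psph, the phosphatase that releases serine, was the member of this branch that was not called. It was at 38.0, 51.1 and 46.3 FPKM, against 51.6, 48.3 and 46.9 FPKM, so that shNumb-ctr replicate 1 was the low library and the groups overlapped (log2 -0.12, 95% interval -0.34 to 0.09, limma adjusted p = 0.391).

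Both serine hydroxymethyltransferases, which move a carbon unit from serine to folate, were lower. The mitochondrial enzyme gene Shmt2 was at 178, 179 and 183 FPKM in the libraries labelled shNumb-ctr, against 214, 218 and 208 FPKM in those labelled shscr-ctr (log2 -0.25, SE 0.028, limma adjusted p = 0.00172). The cytosolic enzyme gene Shmt1 was at 24.3, 25.3 and 26.0 FPKM, against 31.3, 29.3 and 31.1 FPKM (log2 -0.27, SE 0.041, limma adjusted p = 0.00545). The groups did not overlap in either gene. The Shmt2 to Shmt1 ratio was 7.14 ± 0.154 in the libraries labelled shNumb-ctr and 6.99 ± 0.417 in those labelled shscr-ctr (SD, n = 3 each, two-sided exact permutation p = 0.6, where 0.1 is the smallest that 3 against 3 allows, so that a difference between the compartments could not be shown).

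Downstream of Shmt2, mitochondria oxidize the carbon unit and release it as formate. Mthfd1l, whose enzyme releases the formate, had the strongest fall of all members, to 38.6, 40.5 and 39.8 FPKM in the libraries labelled shNumb-ctr, against 49.5, 48.5 and 48.3 FPKM in those labelled shscr-ctr (log2 -0.29, SE 0.031, limma adjusted p = 0.00142). Aldh1l2, a mitochondrial enzyme that burns formyl-folate to carbon dioxide and makes NADPH, was at 28.2, 29.0 and 28.8 FPKM, against 34.4, 33.1 and 33.3 FPKM (log2 -0.22, SE 0.032, limma adjusted p = 0.00452). Neither gene overlapped between the groups. Mthfd2, the mitochondrial dehydrogenase between Shmt2 and these steps, was at 85.9, 90.6 and 85.2 FPKM, against 94.9, 93.4 and 97.1 FPKM (log2 -0.12, SE 0.033, limma adjusted p = 0.0347). Mthfd1, the cytosolic enzyme that takes up formate again, was at 44.2, 44.4 and 44.8 FPKM, against 51.0, 50.2 and 47.0 FPKM (log2 -0.15, SE 0.036, limma adjusted p = 0.0270). The calls for Mthfd2 and Mthfd1 held in only 2 and 4 of 12 alternative settings, with limma adjusted p up to 0.105 and 0.0896. The 6 other called genes of the branch were called in all 12. Relative to Mthfd2, Aldh1l2 was at 0.328 ± 0.0088 in the libraries labelled shNumb-ctr and 0.353 ± 0.0101 in those labelled shscr-ctr, and Mthfd1l relative to Mthfd1 at 0.892 ± 0.0188 and 0.988 ± 0.0339 (SD, n = 3 each). Neither ratio overlapped between the groups, with a two-sided exact permutation p of 0.1 each. In all, 12 ratios between related genes were computed, and with 3 against 3 libraries none could pass 0.05. The ratios Mthfd2 to Mthfd1, Prps1 to Prps2, Ctps to Ctps2 and Rrm1 to Rrm2 overlapped between the groups. Their two-sided exact permutation p was 0.6, 0.4, 0.4 and 0.2.

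**Figure D2:**
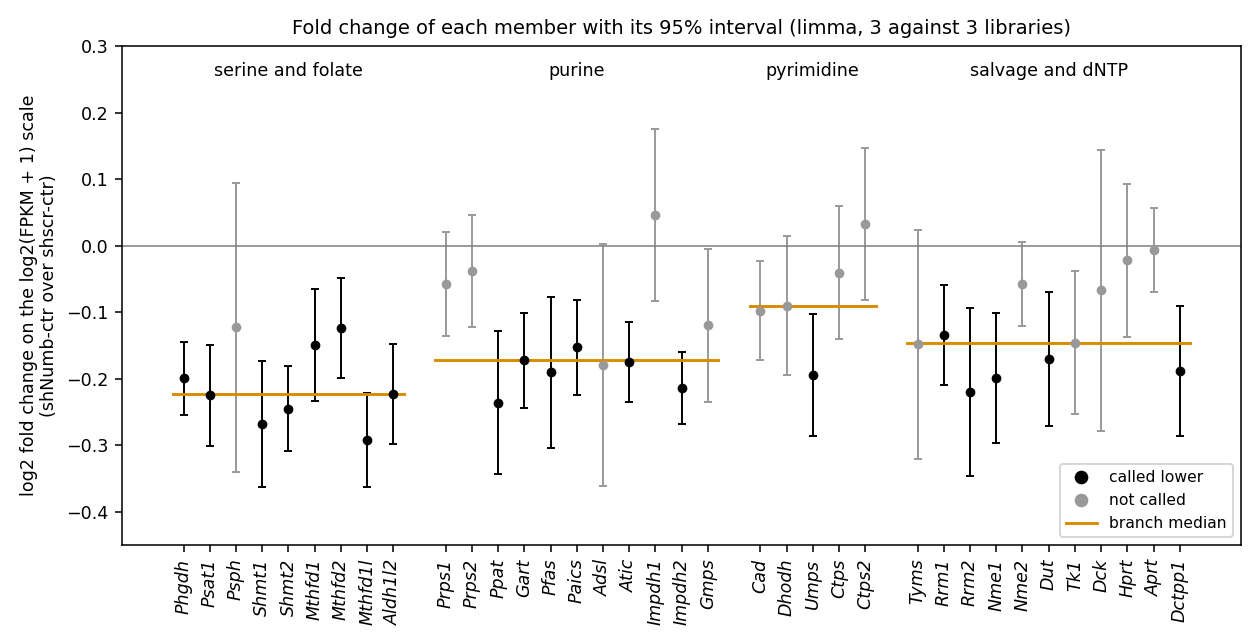
Log2 fold change of each member (libraries labelled shNumb-ctr over those labelled shscr-ctr) with its 95% interval, from limma on log2(FPKM + 1) values of 3 against 3 libraries. Black points are called lower, grey points are not called, and the horizontal bars are the branch medians of -0.22, -0.17, -0.09 and -0.15 from left to right.

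The other folate genes had calls in both directions. Of 23 further genes of the folate cycle, glycine cleavage and folate transport, 18 were tested, of which 2 were called lower and 4 higher, with a median log2 fold change of -0.01. That is 11.1% lower and 22.2% higher, against 10.7% and 8.11% of all tested genes. The lower calls were thus near the share of all genes. Sfxn2, a mitochondrial carrier of the sideroflexin family, was at 9.09, 9.10 and 8.79 FPKM in the libraries labelled shNumb-ctr, against 12.8, 10.9 and 11.7 FPKM in those labelled shscr-ctr (log2 -0.35, limma adjusted p = 0.00738). Fpgs, which adds glutamate to folates, was also lower (log2 -0.14, limma adjusted p = 0.0385), a call that held in 3 of 12 alternatives. Ggh, which removes that glutamate, was higher at 1.76 ± 0.179 against 0.837 ± 0.0913 FPKM (SD, n = 3 each, log2 0.59, limma adjusted p = 0.00408), and it passed the filter through the libraries labelled shNumb-ctr alone, so that its direction was set by the filter. The other 3 higher genes were above 1 FPKM in all 6 libraries. Mthfs, which recycles 5-formyl-folate, was higher (log2 0.27, limma adjusted p = 0.0159), as were its relative Mthfsl (log2 0.25) and Mthfd2l. The calls for Mthfs, Mthfsl and Mthfd2l held in 10, 7 and 6 of 12 alternatives.

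Mthfd2l encodes a mitochondrial relative of Mthfd2 and moved the other way. It was at 4.32, 4.56 and 4.31 FPKM in the libraries labelled shNumb-ctr, against 3.64, 3.69 and 3.31 FPKM in those labelled shscr-ctr (log2 0.25, SE 0.060, limma adjusted p = 0.0258). Its level was 0.0504 ± 0.000173 of that of Mthfd2 in the libraries labelled shNumb-ctr and 0.0373 ± 0.00285 in those labelled shscr-ctr (SD, n = 3 each, two-sided exact permutation p = 0.1, the smallest possible). Both genes had already separated in opposite directions, so the separation of this ratio was fixed in advance. Of 17 genes of the methionine cycle and of serine use, 13 were tested and Ahcy alone was called, lower at 83.5, 79.9 and 80.4 FPKM against 98.9, 98.3 and 98.7 FPKM (log2 -0.28, limma adjusted p = 0.00123). The share called lower was 7.69%, against 10.7% of all tested genes. Ahcy, which clears S-adenosylhomocysteine after methylation, is uncertain, with 76.8% of its windows shared.

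The purine branch had 6 of 11 members called lower and 0 higher, with a median log2 fold change of -0.17. Of all tested genes 10.7% were called lower, against 54.55% of this branch. Its summed level was 625 ± 7.76 FPKM in the libraries labelled shNumb-ctr and 704 ± 4.61 FPKM in those labelled shscr-ctr (SD, n = 3 each). The calls lay in the chain that builds IMP, the parent purine nucleotide, and in the step from IMP towards GMP.

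Ribose-phosphate for the chain comes from the PRPP synthetases, and neither of their genes was called. Prps1 was at 33.4, 34.2 and 32.2 FPKM in the libraries labelled shNumb-ctr, against 34.1, 35.0 and 34.8 FPKM in those labelled shscr-ctr (log2 -0.06, 95% interval -0.14 to 0.02, limma adjusted p = 0.262). Prps2 was at 16.9, 16.7 and 16.1 FPKM, against 17.1, 17.0 and 17.2 FPKM (log2 -0.04, 95% interval -0.12 to 0.05, limma adjusted p = 0.484). Of 7 pentose phosphate genes, which make the ribose, Pgd, Tkt and Rpia were called lower (log2 -0.19, -0.12 and -0.23, limma adjusted p = 0.00208, 0.0146 and 0.0163) and 0 higher. That is 42.9% lower, against 10.7% of all tested genes, and 1 of these calls held in every alternative setting.

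Ppat, the amidotransferase of the committed step, was at 13.8, 14.8 and 13.5 FPKM in the libraries labelled shNumb-ctr, against 16.7, 16.2 and 17.2 FPKM in those labelled shscr-ctr (log2 -0.24, SE 0.046, limma adjusted p = 0.0130). Paics, which encodes an enzyme of later steps of the same chain, was at 126, 126 and 124 FPKM, against 145, 137 and 137 FPKM (log2 -0.15, SE 0.031, limma adjusted p = 0.0143). Ppat and Paics lie head to head on mouse chromosome 5, on opposite strands, and their RefSeq spans overlap by 277 bases (GRCm38.p6), so that reads from the overlap cannot be told apart without strand. Of the windows of their longest transcripts, 5.8% for Ppat and 12.3% for Paics occur in other genes.

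Between them, Gart, a trifunctional enzyme, was at 66.0, 68.8 and 70.1 FPKM in the libraries labelled shNumb-ctr, against 78.0, 77.2 and 76.1 FPKM in those labelled shscr-ctr (log2 -0.17, SE 0.031, limma adjusted p = 0.00957). Pfas, the amidotransferase that follows Gart, was at 12.9, 13.4 and 12.8 FPKM, against 15.2, 15.8 and 14.2 FPKM (log2 -0.19, SE 0.049, limma adjusted p = 0.0322), a call that held in 6 of 12 alternatives. Atic, which closes the purine ring with formyl-folate, was at 70.3, 70.5 and 70.8 FPKM, against 78.5, 79.8 and 80.9 FPKM (log2 -0.17, SE 0.026, limma adjusted p = 0.00492). The groups did not overlap in these 3 genes, and the calls for Ppat, Gart, Paics and Atic held in all 12 alternatives. Adsl, which splits off fumarate before the Atic step, was at 40.8, 39.1 and 49.6 FPKM, against 47.6, 50.3 and 48.3 FPKM. There shNumb-ctr replicate 3 lay among the libraries labelled shscr-ctr, and Adsl was not called (log2 -0.18, 95% interval -0.36 to 0.00, limma adjusted p = 0.147) except in the fit without that library (limma adjusted p = 0.0114, up to 0.335 in the other alternatives).

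The IMP dehydrogenases commit IMP to guanine nucleotides, and 1 of their 2 genes was called. Impdh2 was at 212, 209.8 and 215 FPKM in the libraries labelled shNumb-ctr, against 248, 245 and 246 FPKM in those labelled shscr-ctr (log2 -0.21, SE 0.023, limma adjusted p = 0.00148). Impdh1 was at 22.2, 21.6 and 25.1 FPKM, against 21.6, 22.7 and 22.1 FPKM (log2 0.05, 95% interval -0.08 to 0.17, limma adjusted p = 0.595), with overlapping groups. The Impdh2 to Impdh1 ratio was 9.28 ± 0.616 in the libraries labelled shNumb-ctr and 11.1 ± 0.359 in those labelled shscr-ctr, without overlap (SD, n = 3 each, two-sided exact permutation p = 0.1, the smallest possible), so that a difference between the genes was not shown by a test. Impdh2 is uncertain, because 74.0% of its windows also occur in its pseudogene Impdh2-ps. Gmps, which makes GMP, was at 5.79, 5.76 and 5.63 FPKM, against 6.36, 6.05 and 6.53 FPKM, without overlap but not called (log2 -0.12, limma adjusted p = 0.129).

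The bases before the start of 4 called members are shown because they hold the E-box CACGTG, a sequence bound by Myc with its partner Max. Sequences are from RefSeq (GRCm38.p6), read 5′ to 3′ along the gene's strand, with the E-box in capitals. For Impdh2 (chr9:108560186-108560435, plus strand), Atic (chr1:71556906-71557155, plus strand) and Nme1 (chr11:93968273-93968522, minus strand) the 250 bases before a start are given, and for Paics (chr5:76951087-76951116, plus strand) 30 bases, since its upstream window lies inside Ppat.
Impdh2: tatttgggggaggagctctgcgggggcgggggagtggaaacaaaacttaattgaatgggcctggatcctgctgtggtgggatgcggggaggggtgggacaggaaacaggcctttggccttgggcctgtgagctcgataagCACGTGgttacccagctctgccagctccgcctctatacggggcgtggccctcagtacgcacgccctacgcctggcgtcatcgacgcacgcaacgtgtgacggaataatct
Atic: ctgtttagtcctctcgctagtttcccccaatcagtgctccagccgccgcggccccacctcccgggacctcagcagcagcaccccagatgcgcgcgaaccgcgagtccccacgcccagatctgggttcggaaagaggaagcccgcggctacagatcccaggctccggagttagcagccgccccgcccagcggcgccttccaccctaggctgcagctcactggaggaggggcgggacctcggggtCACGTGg
Nme1: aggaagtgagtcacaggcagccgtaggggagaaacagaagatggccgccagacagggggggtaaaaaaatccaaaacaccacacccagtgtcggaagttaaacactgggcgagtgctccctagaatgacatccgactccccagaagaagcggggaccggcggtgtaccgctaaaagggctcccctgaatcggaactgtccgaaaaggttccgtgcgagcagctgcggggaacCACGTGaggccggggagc
Paics: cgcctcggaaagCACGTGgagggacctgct

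The E-box begins 110 bases before the start in Impdh2, 7 in Atic, 18 in Nme1, counted from the start shown, and 203 in Paics. Promoter windows (250 bases before to 50 after a start, both strands searched) were found for 33 members, and 5 of them held the E-box: these 4 and Tyms, which was not called. Of the 27025 genes in the RefSeq table, 8.09% held it. That set was not limited to genes detected here, whereas every member was detected, so shares of all genes are not a matched comparison. The NF-Y sequence CCAAT was in the windows of 15 members, 12 of them called, and of 41.1% of all genes. TTGCATC, the core of the element bound by ATF4 with C/EBP factors, and the E2F sequences TTTCGCG and TTTGGCG were found in 0 of the 33 members, and in 2.89% and 2.68% of all genes. At such low shares, 0 of 33 members says little. Other forms of these elements were not searched, so their absence is not shown. In Atic, Impdh2 and Paics, which held both the E-box and CCAAT, the matches did not overlap.

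Of 20 regulators in the Myc, ATF4 and E2F group, 17 were tested, of which 5 were called lower and 1, Myc, higher. In shares, 29.4% were lower and 5.88% higher, against 10.7% and 8.11% of all tested genes. Of these 6 calls, 3 held in every alternative setting. Myc was low in all libraries, at 1.43, 1.47 and 1.15 FPKM in the libraries labelled shNumb-ctr and 0.752, 0.587 and 0.434 FPKM in those labelled shscr-ctr (log2 0.56, SE 0.103, limma adjusted p = 0.0100), and it passed the filter only through the libraries labelled shNumb-ctr, which set its direction. Mxd4 and Mxd1, whose proteins compete with Myc for Max, were lower (log2 -0.37 and -0.34, limma adjusted p = 0.00393 and 0.00437), as were Mxi1, Max and E2f8. Atf4, which drives the serine genes under amino acid stress, was at 248.7 ± 4.11 against 257.9 ± 1.70 FPKM (SD, n = 3 each), without overlap but not called (log2 -0.05, limma adjusted p = 0.160). E2f1 was at 17.5 ± 0.849 against 18.8 ± 0.795 FPKM (SD, n = 3 each), with overlapping groups (log2 -0.10, limma adjusted p = 0.167).

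The further purine genes were mixed. Of 26 genes of purine interconversion, salvage and breakdown, 23 were tested, of which 6 were called lower and 2 higher, with a median log2 fold change of -0.06. The shares were 26.1% lower and 8.7% higher, against 10.7% and 8.11% of all tested genes. Ak4, a mitochondrial adenylate kinase, was at 16.9, 17.6 and 15.5 FPKM in the libraries labelled shNumb-ctr, against 22.5, 20.9 and 21.7 FPKM in those labelled shscr-ctr (log2 -0.36, limma adjusted p = 0.00427). Nt5c2, a cytosolic nucleotidase that acts on IMP and GMP, was lower as well (log2 -0.19, limma adjusted p = 0.0107), as was Itpa, which clears inosine triphosphate (log2 -0.27, limma adjusted p = 0.00275, uncertain with 29.6% shared windows). Ada, adenosine deaminase, was higher at 3.21 ± 0.253 against 2.26 ± 0.196 FPKM (SD, n = 3 each, log2 0.37, limma adjusted p = 0.0145). Adss1, an adenylosuccinate synthetase of the branch from IMP to AMP, was also higher (log2 0.32, limma adjusted p = 0.0166).

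The pyrimidine branch had 1 of 5 members called lower and 0 higher, with a median log2 fold change of -0.09. Of all tested genes 10.7% were called lower, against 20% of this branch. Its summed level was 93.2, 97.6 and 94.2 FPKM in the libraries labelled shNumb-ctr and 101.3, 99.4 and 100.7 FPKM in those labelled shscr-ctr.

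Umps, which completes UMP, was the called member, at 15.1, 15.8 and 15.8 FPKM in the libraries labelled shNumb-ctr, against 18.5, 17.6 and 17.8 FPKM in those labelled shscr-ctr (log2 -0.19, SE 0.040, limma adjusted p = 0.0146). That call held in 9 of 12 alternatives and was lost without shNumb-ctr replicate 1, without shscr-ctr replicate 1 and with the replicate number as a block, with limma adjusted p up to 0.0553. Cad, which carries out the opening steps of the pathway, was at 24.7, 25.3 and 25.6 FPKM, against 27.3, 27.1 and 26.8 FPKM, a separation of the groups that was not called (log2 -0.10, 95% interval -0.17 to -0.02, limma adjusted p = 0.0691). Dhodh, the step at the inner mitochondrial membrane, averaged 14.0 ± 0.631 against 15.0 ± 0.425 FPKM with overlapping groups (SD, n = 3 each, log2 -0.09, limma adjusted p = 0.195).

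The CTP synthetases were not called in either direction. Ctps was at 21.7, 23.4 and 21.5 FPKM in the libraries labelled shNumb-ctr, against 23.4, 23.0 and 22.1 FPKM in those labelled shscr-ctr (log2 -0.04, 95% interval -0.14 to 0.06, limma adjusted p = 0.543). Ctps2 was at 17.8, 18.4 and 17.8 FPKM, against 17.6, 16.5 and 18.7 FPKM (log2 0.03, 95% interval -0.08 to 0.15, limma adjusted p = 0.683). Of 15 genes of pyrimidine salvage and breakdown, 12 were tested and Uck2 was called lower (log2 -0.17, limma adjusted p = 0.00855), Dpys and Upp1 higher (log2 0.44 and 0.53, limma adjusted p = 0.00824 and 0.0289). These were 8.33% lower and 16.7% higher, against 10.7% and 8.11% of all tested genes. Uck2 phosphorylates salvaged uridine and cytidine, and Upp1 splits uridine. Upp1 was at 1.68, 2.61 and 2.82 FPKM, against 1.37, 1.19 and 1.39 FPKM, and its call held in 6 of 12 alternatives.

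The salvage and dNTP branch had 5 of 11 members called lower and 0 higher, with a median log2 fold change of -0.15. Of all tested genes 10.7% were called lower, against 45.45% of this branch. Its summed level was 892 ± 7.09 FPKM in the libraries labelled shNumb-ctr and 933 ± 7.19 FPKM in those labelled shscr-ctr (SD, n = 3 each), with most of it from Nme2 and Aprt, neither of which was called. The called members act on dNTPs or their diphosphate precursors, with no purine salvage enzyme among them. None of these 5 calls held in all 12 alternatives.

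Both subunits of ribonucleotide reductase were lower. The large subunit gene Rrm1 was at 34.7, 35.9 and 34.8 FPKM in the libraries labelled shNumb-ctr, against 39.3, 39.1 and 37.7 FPKM in those labelled shscr-ctr (log2 -0.13, SE 0.033, limma adjusted p = 0.0258). The small subunit gene Rrm2, whose transcript is made in S phase, was at 16.2, 16.2 and 14.3 FPKM, against 18.8, 17.9 and 18.1 FPKM (log2 -0.22, SE 0.055, limma adjusted p = 0.0290). These calls held in 6 and 7 of 12 alternatives. Dut, which removes dUTP before it can enter DNA, was at 31.1, 32.6 and 29.95 FPKM, against 33.9, 36.7 and 35.2 FPKM (log2 -0.17, SE 0.044, limma adjusted p = 0.0308), and Dctpp1, a dCTP pyrophosphatase, at 40.2, 38.9 and 42.8 FPKM, against 46.5, 45.0 and 47.8 FPKM (log2 -0.19, SE 0.042, limma adjusted p = 0.0202). The calls for Dut and Dctpp1 held in 6 and 8 of 12 alternatives. Tyms, which makes thymidylate with a folate-bound carbon, averaged 9.24 ± 0.708 against 10.4 ± 0.941 FPKM and was not called (SD, n = 3 each, log2 -0.15, limma adjusted p = 0.196).

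Nme1 and Nme2 encode nucleoside diphosphate kinases that turn diphosphates into triphosphates. Nme1 was at 30.1, 28.2 and 29.3 FPKM in the libraries labelled shNumb-ctr, against 32.3, 35.3 and 33.6 FPKM in those labelled shscr-ctr (log2 -0.20, SE 0.043, limma adjusted p = 0.0170). Nme2 was at 316, 314 and 323 FPKM, against 338, 333 and 322 FPKM, with overlap (log2 -0.06, 95% interval -0.12 to 0.01, limma adjusted p = 0.171). Both overlap the read-through gene Gm20390, and 53.6% of the windows of Nme2 and 11.8% of those of Nme1 are shared, so the division of reads between them is uncertain. The Nme2 to Nme1 ratio was 10.9 ± 0.336 in the libraries labelled shNumb-ctr and 9.82 ± 0.551 in those labelled shscr-ctr, without overlap (SD, n = 3 each, two-sided exact permutation p = 0.1). The Nme1 call was lost with the replicate number as a block (limma adjusted p = 0.0564) and held in the other 11 alternatives.

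The salvage kinases and phosphoribosyltransferases were not called. Tk1, the cytosolic thymidine kinase of dividing cells, was at 32.3, 28.9 and 31.6 FPKM in the libraries labelled shNumb-ctr, against 34.1, 35.3 and 33.5 FPKM in those labelled shscr-ctr, without overlap (log2 -0.15, 95% interval -0.25 to -0.04, limma adjusted p = 0.0635). Dck, deoxycytidine kinase, averaged 6.70 ± 0.921 against 7.04 ± 0.527 FPKM (log2 -0.07, limma adjusted p = 0.639). Hprt, which recovers hypoxanthine and guanine, averaged 99.8 ± 2.65 against 101.5 ± 7.05 FPKM (log2 -0.02, limma adjusted p = 0.783), and Aprt, which recovers adenine, 275 ± 6.32 against 277 ± 4.82 FPKM (log2 -0.01, 95% interval -0.07 to 0.06, limma adjusted p = 0.883, SD with n = 3 throughout). The signs of Dck, Hprt and Aprt turned in at least 1 alternative.

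Rrm2b and Tk2, relatives of Rrm2 and Tk1 that supply dNTPs outside S phase, were called higher, and were singled out after their values were seen. Rrm2b, the alternative small subunit of ribonucleotide reductase, was at 4.74, 4.70 and 4.45 FPKM in the libraries labelled shNumb-ctr, against 3.69, 3.62 and 4.02 FPKM in those labelled shscr-ctr (log2 0.24, SE 0.059, limma adjusted p = 0.0283). Tk2, the mitochondrial thymidine kinase, was at 15.1, 14.3 and 14.0 FPKM, against 11.6, 12.1 and 11.6 FPKM (log2 0.28, SE 0.043, limma adjusted p = 0.00575). Tk2 was called in all 12 alternatives and Rrm2b in 5. Dguok, the mitochondrial deoxyguanosine kinase, was at 13.0, 13.2 and 12.8 FPKM, against 9.86, 11.6 and 12.3 FPKM, without overlap but not called (log2 0.20, limma adjusted p = 0.0940). The Rrm2b to Rrm2 ratio was 0.298 ± 0.0124 in the libraries labelled shNumb-ctr and 0.207 ± 0.0137 in those labelled shscr-ctr, and the Tk2 to Tk1 ratio 0.468 ± 0.0253 and 0.343 ± 0.00423 (SD, n = 3 each). Neither ratio overlapped between the groups (two-sided exact permutation p = 0.1 for each, the smallest possible). Since the genes of each pair had separated in opposite directions, this outcome was fixed in advance and adds nothing to their single results.

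**Figure D3:**
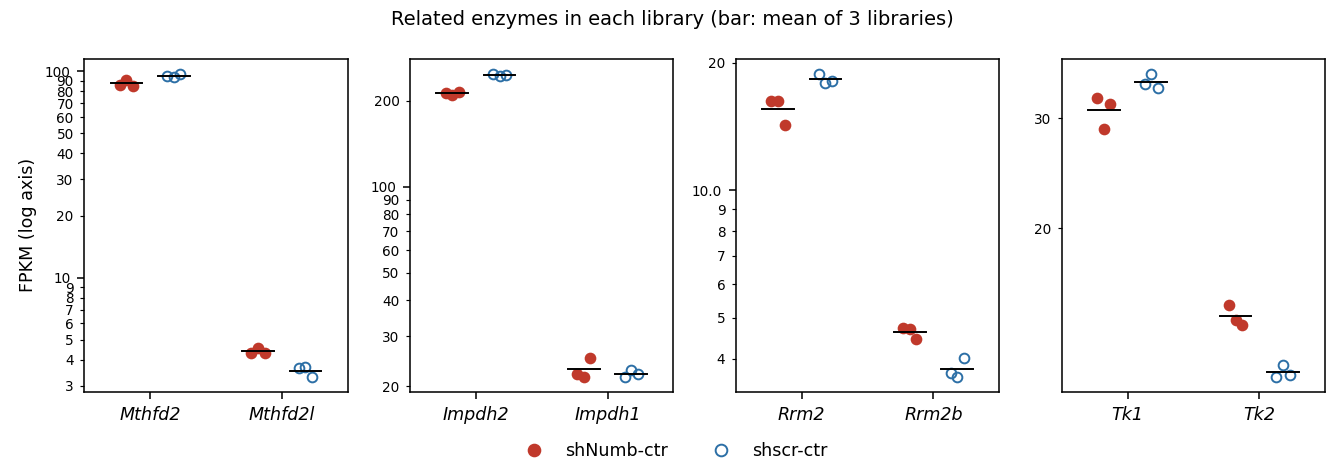
FPKM (log axis, with its own range in each panel) of related enzyme genes in each library, with the libraries labelled shNumb-ctr as filled points to the left of those labelled shscr-ctr as open points, and bars at the means of 3 libraries. Mthfd2, Impdh2 and Rrm2 were called lower and Mthfd2l, Rrm2b and Tk2 higher, while Impdh1 and Tk1 were not called.

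Of the 16 further genes of dNTP supply and sanitation, 15 were tested, 4 were called higher and 1, Nme3, lower, with a median log2 fold change of 0.00. In shares, 26.7% were higher and 6.67% lower, against 8.11% and 10.7% of all tested genes. Besides Rrm2b and Tk2, the higher genes were Nudt18 and Nudt16 (log2 0.36 and 0.32, limma adjusted p = 0.00857 and 0.0146), whose Nudix hydrolases clear damaged or deaminated nucleotides. Nme3 was at 2.47, 2.53 and 2.46 FPKM in the libraries labelled shNumb-ctr, against 4.30, 4.47 and 4.07 FPKM in those labelled shscr-ctr (log2 -0.60, limma adjusted p = 0.00111), but 91.0% of its windows are shared, mostly with the overlapping Mrps34. Over all 88 tested genes of the pathways that are not members, 14 were called lower and 12, Ggh among them, higher, with a median log2 fold change of -0.04. That is 15.9% lower and 13.6% higher, against 10.7% and 8.11% of all tested genes.

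Genes of cell division were lower in the same libraries. Of 20 DNA replication genes, 11 were called lower and 0 higher, with a median log2 fold change of -0.16. Of 15 mitosis genes, 11 were called lower and 0 higher, with a median of -0.19. In shares, 55% and 73.3% were lower, against 10.7% of all tested genes. The calls of 7 replication genes and 5 mitosis genes held in every alternative setting. Uhrf1, Mcm5 and Lig1 had the smallest adjusted p of the replication genes (log2 -0.33, -0.33 and -0.26, limma adjusted p = 7.0e-04, 0.00170 and 0.00485), and Cdc20, Birc5 and Bub1b of the mitosis genes (log2 -0.25, -0.19 and -0.22, limma adjusted p = 0.00208, 0.00505 and 0.00708). Their part in the lower level of the synthesis enzymes was not tested.

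**Figure D4:**
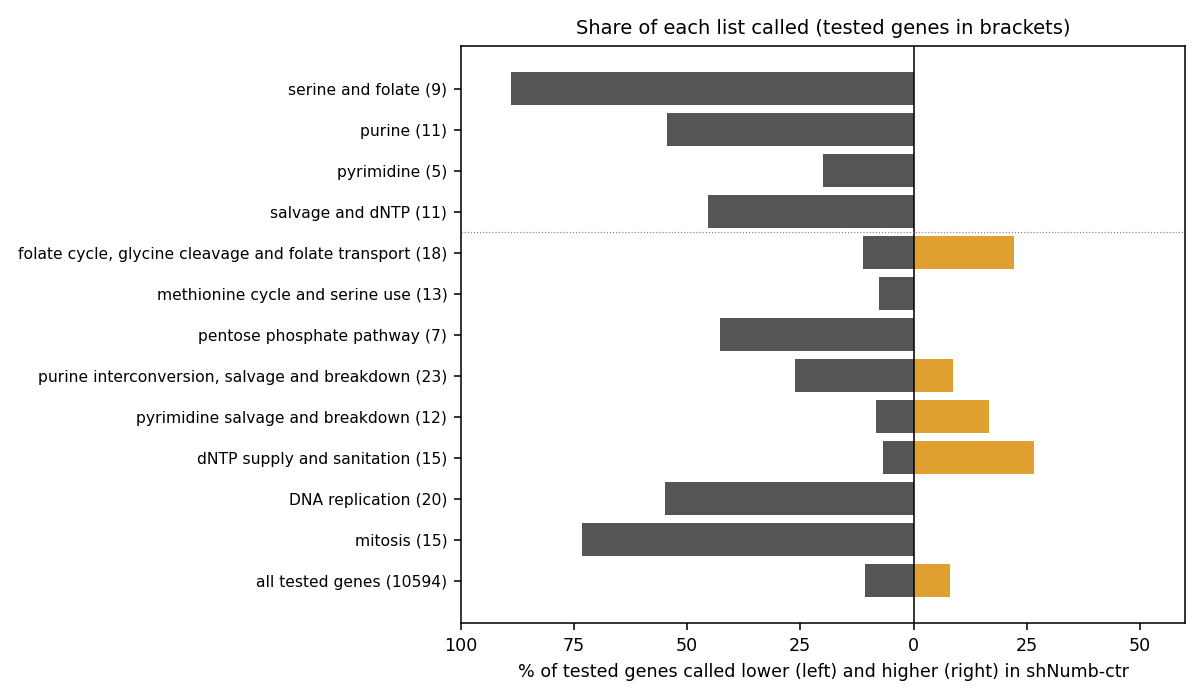
Percentage of the tested genes of each list called lower (bars to the left) and higher (bars to the right) in the libraries labelled shNumb-ctr, with the 4 member branches above the dotted line, other genes of the same pathways and of cell division below it, and all 10594 tested genes last. The serine and folate branch stands at 88.9% lower, against 10.7% lower and 8.11% higher over all tested genes, a balance that turned under both other scalings.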

How the data were processed

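RNA of 6 BV2 libraries, collected in TRIzol per the labels' protocols, was analysed from the deposited tables of 1 value per gene. The headers name no unit, and the fractional values were read as FPKM, made by the authors for gene length and depth, although the values could also be TPM. The submitters' processing notes name CASAVA and DESeq2 with no role. The aligner, genome build and strandedness, not given in the sources used here, are unknown. Of the listed names 556 have the StringTie default form. Depth is unknown, so no counting interval is given.

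Genes with at least 1 FPKM in at least 3 libraries (10594) were tested as log2(FPKM + 1) in limma 3.58.1 (R 4.3.3) with a trended prior variance, two-sided, with Benjamini-Hochberg adjustment over all of them, and called at an adjusted p under 0.05. The 12 alternatives were a pseudocount of 0.1, no filter, median-of-ratios scaling, quantile normalization, a replicate block, an untrended prior and leaving out each of 6 libraries. The fit was tested on simulated data with known changes.

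Members and gene lists were chosen with earlier results of these data known. Values are given in each library for called members and related pairs. From each other list, up to 3 called genes per direction with the smallest adjusted p are named, and Myc, Atf4 and E2f1 whatever their value. Mthfsl, Max, E2f8, Rrm2b and the ratios of Mthfd2l, Rrm2b and Tk2 to their relatives were named after their values were seen. Dguok, which was not called, was named outside the rule for the other lists. Shared windows (50 bases, every 10 bases of the longest transcript) were counted in GENCODE M21 with Python 3.11.15, with levels called uncertain above 20%.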

Additional observations from a re-analysis of the deposited data

How the results depend on the processing

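The members called lower numbered 14 to 20 in the alternatives that kept all libraries, 13 to 18 when 1 library was left out, and 18 of 33 when, as chosen after seeing the data, members with over 20% shared windows were left out. Over all tested genes, 5.28% to 10.7% were called lower in the alternatives that kept all libraries. That share was 4.41% to 8.26% when 1 library was left out. No member was called higher in any of the 12 alternatives (0 in each). When 1 library was left out, the serine and folate, purine, pyrimidine and dNTP branches had 6 to 7, 5 to 6, 0 to 1 and 2 to 4 members called lower, the median log2 fold change of the members was -0.17 to -0.15, and 964 to 1526 genes were called in all. The salvage and dNTP branch had 3 called with no filter, with the replicate block and with no trend, and the pyrimidine branch 0 with the replicate block. Median-of-ratios scaling moved the median of the members to -0.13. Over all tested genes, the excess of lower calls (1130 lower, 859 higher) turned to 880 lower and 994 higher with that scaling and to 918 lower and 946 higher with quantile normalization. Of the members not called, Impdh1, Ctps2, Dck, Hprt and Aprt turned sign. Leaving out 1 library gave a log2 fold change of -0.016 (without shNumb-ctr replicate 3) to 0.086 for Impdh1, -0.012 (without shscr-ctr replicate 2) to 0.076 for Ctps2, -0.15 to 0.026 (without shNumb-ctr replicate 1) for Dck, -0.080 to 0.0090 for Hprt (positive without shscr-ctr replicate 1 or 3) and -0.023 to 0.0098 for Aprt (positive without shscr-ctr replicate 2 or shNumb-ctr replicate 2). Aprt was also positive with median-of-ratios scaling (0.011) and quantile normalization (0.011). The cause was not tested.

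Same-numbered libraries did not deviate together over all tested genes (correlations of their deviations from the group means 0.00667, 0.0118 and 0.0472). The labels do not say how the numbers were assigned, and a pairing that moves few genes could not be seen this way. With the replicate number as a block, 1079 genes were called instead of 1989, and 14 members were lower instead of 20. The share of all tested genes called lower was 5.28% instead of 10.7%. The block also leaves fewer degrees of freedom, so this fall does not measure pairing.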
